A study of Mus musculus with 8 samples.

Results

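The genes for 7 ligands of the EGF receptor (Areg, Ereg, Hbegf, Tgfa, Btc, Epgn and Egf) and for 3 receptors of the ERBB family (Egfr, Erbb2 and Erbb3) were followed in whole back skin of Flg-deficient mice. They were chosen by name, as the ligands and receptors of 1 signalling family, with earlier results of these data known. All 10 were found among the 49671 genes of the count table. The groups were 4 samples labelled ko/ko for Flg, called Flg knockout here, and 4 labelled wt/wt, called wild type. All came from shaved back skin of mice aged 8 weeks, taken whole, so each value is a mix of the skin's layers, its appendages and the fat and muscle beneath. The labels give no strain, allele or sex and do not say whether each sample was a separate mouse, so p-values measure the spread between these samples. The series asks how loss of Flg, which encodes the precursor of the barrier protein filaggrin, alters gene expression of the skin as a whole.

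The ligands are made as membrane-bound precursors, and metalloproteases, above all ADAM17, cut the active part free. Amphiregulin (Areg), epigen (Epgn), TGF-alpha (Tgfa) and EGF bind EGFR, while epiregulin (Ereg), HB-EGF (Hbegf) and betacellulin (Btc) bind EGFR and also ERBB4. Bound receptors pair with each other. ERBB2 has no known ligand of its own and serves as a partner, and ERBB3 binds neuregulins but has little kinase activity, so that it signals through its partner. In skin this family drives keratinocyte growth, wound closure and the hair cycle, and EGFR signalling restrains terminal differentiation of keratinocytes.

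Library totals lay between 18483242 and 38545957 counts. Flg itself was at 27.0, 24.7, 24.1 and 22.3 CPM (a count scaled to library size and composition) in Flg knockout replicates 1 to 4, against 66.9, 46.5, 56.1 and 66.6 CPM in wild-type replicates 1 to 4. It fell in Flg knockout by 1.27 on the log2 scale (SE 0.12, edgeR adjusted p = 0.00326). Basal keratinocyte markers, which define the epidermis, were present in every library, with Krt5 at 2091 CPM or more, although their summed level did not overlap between genotypes. It was 6847 to 7648 CPM in Flg knockout and 7844 to 8976 CPM in wild type, with 0 of 8 markers called and 6 of 8 below 0. By the mean log2 CPM of these 8 markers the genotypes overlapped, at 8.94 to 9.14 in Flg knockout and 9.12 to 9.19 in wild type. White adipocyte markers summed to 5986 to 7458 CPM in Flg knockout and 4266 to 7578 CPM in wild type, a sum in which Car3 is the largest part. Of these 10 markers 9 were above 0, 7 had an unadjusted p under 0.05, 3 did not overlap between genotypes and 0 were called, with a median log2 fold change of 0.73. Over all genes tested, 19.5% had an unadjusted p under 0.05, 11.5% did not overlap and 1.41% were called (edgeR). By the mean log2 CPM of the adipocyte markers, the Flg knockout libraries lay at 8.05 to 8.69 and the wild-type libraries at 6.97 to 8.35, with wild-type replicate 3 above Flg knockout replicate 3 and below the other 3. Flg knockout replicate 4 stood apart in Krt71, a keratin of the growing hair follicle, at 23.0 CPM against at most 0.910 CPM in the other 7 libraries. Krt71 is 1 of 9 markers of the growing follicle, of which 7 were tested, with 2 above 0, 5 below 0 and 0 called. Krt25, Krt35 and Shh were also highest in Flg knockout replicate 4. Lef1, Msx2, Hoxc13 and Dlx3 were highest in wild-type replicate 1, and Foxn1 in Flg knockout replicate 1. No basal keratinocyte or adipocyte marker was at 0 in any library.

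Epgn, Ereg, Areg and Btc lie side by side on chromosome 5. They span positions 91027464 to 91402994 of mm10, which is 375.5 kb, in that order, with Btc on the minus strand and the others on the plus strand. Of the 7 genes of the count table in that span, only these 4 had more than 100 reads over the 8 libraries.

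RefSeq start windows (build GRCm38.p6, mostly upstream of the start) were at hand for 7 of the 10 genes. Those of Areg, Epgn and Btc are shown, because Areg and Epgn varied most between libraries while Btc, in the same cluster, varied little. Capitals mark the motifs TATAAA, TGACGTCA (the cyclic AMP response element), TGANTCA (the AP-1 site) and GGGCGG (the GC box), searched on both strands. No 2 matches overlapped. The windows are chr5:91139349-91139648 (plus strand), chr5:91027267-91027566 (plus strand) and chr5:91402945-91403244 (minus strand).
Areg: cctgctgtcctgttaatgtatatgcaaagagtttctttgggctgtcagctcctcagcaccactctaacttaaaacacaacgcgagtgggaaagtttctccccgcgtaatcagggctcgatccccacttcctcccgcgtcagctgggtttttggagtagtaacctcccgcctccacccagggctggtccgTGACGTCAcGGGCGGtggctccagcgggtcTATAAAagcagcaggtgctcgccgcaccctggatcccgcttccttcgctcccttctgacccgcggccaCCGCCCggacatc
Epgn: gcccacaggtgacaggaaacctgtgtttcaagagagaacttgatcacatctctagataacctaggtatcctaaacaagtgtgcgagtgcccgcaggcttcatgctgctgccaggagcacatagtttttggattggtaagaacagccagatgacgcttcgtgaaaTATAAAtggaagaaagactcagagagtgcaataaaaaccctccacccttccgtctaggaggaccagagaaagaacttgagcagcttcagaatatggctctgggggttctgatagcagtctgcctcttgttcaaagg
Btc: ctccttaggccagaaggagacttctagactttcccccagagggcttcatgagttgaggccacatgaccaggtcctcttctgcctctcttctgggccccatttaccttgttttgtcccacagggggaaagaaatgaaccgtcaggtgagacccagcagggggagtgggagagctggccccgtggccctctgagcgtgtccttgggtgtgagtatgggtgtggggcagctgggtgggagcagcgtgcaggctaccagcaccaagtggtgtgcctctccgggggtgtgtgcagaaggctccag
The Areg window held TATAAA with its first base at -31, TGACGTCA at -61 and 2 GC boxes, the Epgn window held TATAAA at -86, and the Btc window held none of the 4 motifs. These positions are counted from the RefSeq start, which for Epgn lies 53 bases downstream of the start in the count table. Of all 32851 windows of that length, 13.62% held TATAAA, 1.79% TGACGTCA, 7.81% TGANTCA and 35.66% GGGCGG. Of the other 4 members with a window, Tgfa held 2 GC boxes, Egfr 1, and Egf and Erbb2 none of the motifs. These matches describe the letters only.

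Tgfa lies on chromosome 6 (positions 86195223 to 86275719), Egf on chromosome 3 (129677565 to 129755316), Hbegf on chromosome 18 (36504929 to 36515805), Egfr and Erbb2 on chromosome 11 (16752203 to 16918158 and 98412470 to 98437716) and Erbb3 on chromosome 10 (128567523 to 128589652). Genes on the opposite strand share exon bases with Ereg, Tgfa, Egf and, over 9 bases, Erbb2 (Mien1, up to 793 reads in a library), and the strand setting of the counting is not given in the sources used here. The partners of the ligands were low, with at most 9 reads in a library for that of Ereg, 7 for that of Tgfa, and 14 and 43 for those of Egf.

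Levels can be compared between genes only per length, as TPM, from counts divided by the exon length the table gives and scaled to the same sum in every library. On that scale each of the 3 receptors stood above every ligand in every library. Erbb3 was highest at 90.8 ± 10.3 TPM in Flg knockout and 88.8 ± 16.1 TPM in wild type (SD, n = 4 each), followed by Erbb2 at 68.3 ± 7.18 TPM in Flg knockout and 68.3 ± 7.73 TPM in wild type. Egfr was at 65.7 ± 4.88 TPM in Flg knockout and 52.7 ± 2.60 TPM in wild type. Erbb3 exceeded every other member in all 8 libraries, and Erbb2 exceeded Egfr in 7 of 8, the exception being Flg knockout replicate 3.

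Among the ligands, betacellulin transcripts were the most abundant in every library. Btc stood at 44.2 ± 5.29 TPM in Flg knockout and 40.1 ± 2.47 TPM in wild type, and made up 40.7 ± 2.72% of the summed ligand TPM in Flg knockout and 40.0 ± 3.41% in wild type. Ereg followed at 22.6 ± 5.85 TPM in Flg knockout and 19.5 ± 2.11 TPM in wild type, and Tgfa at 16.5 ± 0.762 TPM in Flg knockout and 13.7 ± 2.18 TPM in wild type. Ereg was above Tgfa in 7 of 8 libraries. The other 4 ligands overlapped one another and had no fixed order. Their medians over the 8 libraries were 7.80 TPM for Areg, 7.24 for Epgn, 6.29 for Hbegf and 5.60 for Egf. Hbegf was above Egf in 0 of 4 Flg knockout libraries and in 4 of 4 wild-type libraries. The receptor sum was 2.10 ± 0.384 times the ligand sum in Flg knockout and 2.10 ± 0.286 times in wild type (TPM, SD, n = 4 each).

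**Figure D1:**
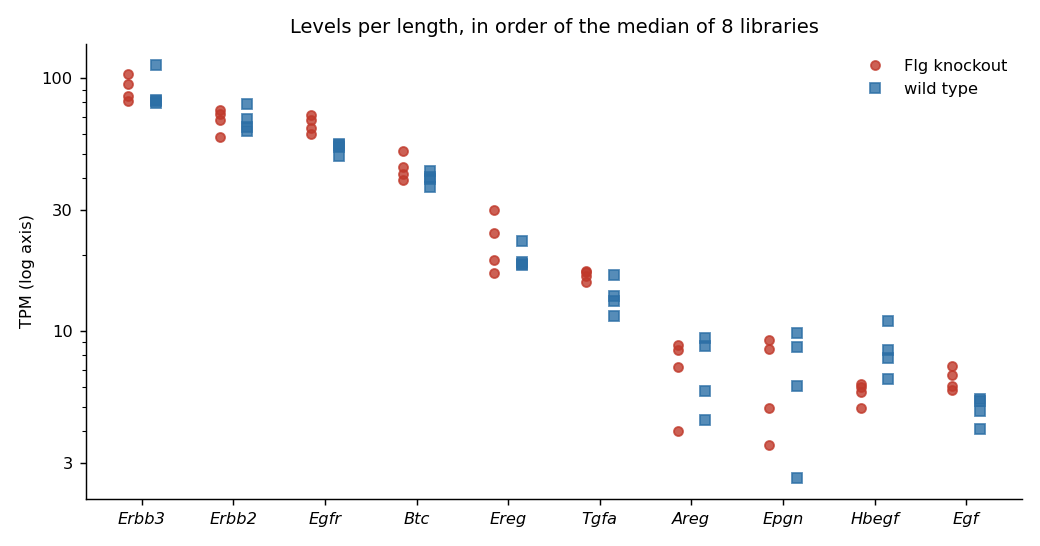
Level per length (TPM, log axis) of the 10 genes, ordered by the median of 8 libraries, with Flg knockout libraries as circles on the left and wild-type libraries as squares on the right of each gene. The receptors Erbb3, Erbb2 and Egfr lie highest, Btc leads the ligands with medians falling to 5.60 TPM for Egf, and the 2 genotypes lie apart for Egfr, Hbegf and Egf.

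None of the 10 genes was called between genotypes with edgeR's quasi-likelihood test (adjusted p under 0.05 over all genes tested). All 10 passed the filter on low counts, and of 19099 genes tested 1.41% were called, 0.712% as higher and 0.702% as lower in Flg knockout. At an unadjusted p under 0.05 there were 3 of 10 (Hbegf, Egf and Egfr), against 19.5% of all genes, and with no overlap of CPM between genotypes 2 of 10 (Hbegf lower, Egfr higher), against 11.5%. DESeq2 called 1 of them, Hbegf as lower, where it called 6.29% of all genes, 3.16% higher and 3.13% lower, and limma voom with quality weights called the same 1, with 13.3% of all genes called, 6.15% higher and 7.13% lower. The median log2 fold change of the 10 was 0.03, against -0.02 over all genes tested, with 5 above and 5 below 0. In whole tissue, fewer cells of a type and less RNA per cell cannot be told apart.

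**Figure D2:**
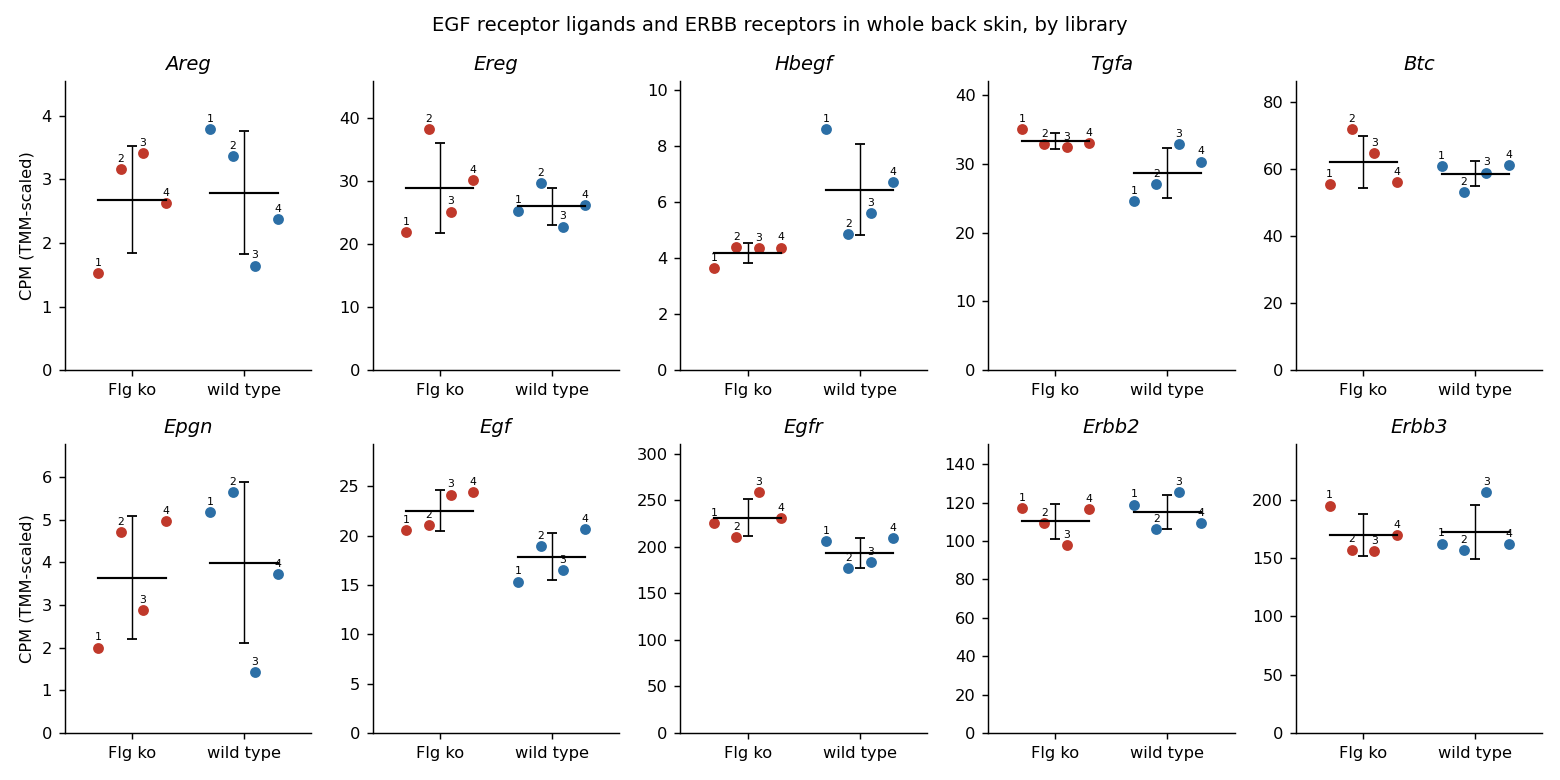
CPM of each gene in the 4 Flg knockout libraries (left) and 4 wild-type libraries (right) of each panel, with replicate numbers, the mean as a bar and the SD as whiskers. Hbegf lay between 3.66 and 4.39 CPM in Flg knockout and from 4.86 to 8.61 CPM in wild type, and Areg and Epgn spread widely within both genotypes.

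Hbegf, which encodes a heparin-binding ligand released during wound repair, had the largest difference of the ligands. It was at 3.66, 4.39, 4.37 and 4.38 CPM in Flg knockout, against 8.61, 4.86, 5.60 and 6.73 CPM in wild type. All 4 Flg knockout libraries lay below all wild-type libraries, with a gap of 4.39 to 4.86 CPM between the nearest. Its log2 fold change was -0.63 ± 0.18 (SE, 95% interval -1.04 to -0.22), with an edgeR adjusted p of 0.110, a DESeq2 adjusted p of 0.0397 and a limma voom adjusted p of 0.0174. Over all 16 alternatives the adjusted p was between 0.0174 and 0.512. The value rests on 82 to 139 reads per library in Flg knockout and 123 to 298 reads in wild type, and it was -0.45 without wild-type replicate 1, the highest library. T cell markers also lay apart, summing to 27.9 to 45.9 CPM in Flg knockout and 55.1 to 69.5 CPM in wild type, with 7 of 7 below 0, a median log2 fold change of -0.76, 4 without overlap and 1 called lower (Cd2). Macrophage and monocyte markers summed to 1255 to 1734 CPM in Flg knockout and 941 to 1549 CPM in wild type, with 4 of 6 above 0 and 1 called higher (Mrc1). Endothelial markers summed to 265 to 307 CPM in Flg knockout and 242 to 367 CPM in wild type. Of these, 5 of 6 were below 0, 1 was lower without overlap and 0 were called. Hbegf was lowest in Flg knockout replicate 1, as the T cell sum was, and in wild-type replicate 2, as the endothelial sum was. Over all genes tested, 5.95% lay lower without overlap, 0.702% were called lower and 0.712% were called higher. The part of any of these cell types in the Hbegf values was not tested. As a share of the summed ligand TPM, Hbegf made up 5.25 ± 0.355% in Flg knockout and 8.33 ± 1.77% in wild type.

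Egf, the founding ligand of the family, was at 20.5, 21.0, 24.2 and 24.4 CPM in Flg knockout, against 15.3, 18.9, 16.5 and 20.6 CPM in wild type. The genotypes overlapped only between wild-type replicate 4 and the lowest Flg knockout library. Egf had a log2 fold change of 0.34 ± 0.12 (95% interval 0.08 to 0.59), which did not pass (edgeR adjusted p = 0.158).

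Tgfa, an EGFR ligand of keratinocytes and hair follicles, was at 35.0, 32.9, 32.4 and 33.0 CPM in Flg knockout, against 24.6, 27.0, 32.8 and 30.3 CPM in wild type. Wild-type replicate 3 lay among the Flg knockout libraries and the other 3 below them. The log2 fold change was 0.22 ± 0.10 (95% interval -0.0039 to 0.44, edgeR adjusted p = 0.265), and it was between 0.15 without wild-type replicate 1 (adjusted p = 0.498) and 0.30 without wild-type replicate 3 (adjusted p = 0.0839). With the mean of the adipocyte markers as a covariate it was 0.06 (adjusted p = 0.925). That fit called 0 of all genes tested, and Flg itself did not pass there (edgeR adjusted p = 0.0783). The part of adipocytes in the Tgfa values was not tested.

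Btc, which binds both EGFR and ERBB4, was at 55.7, 72.0, 64.8 and 56.2 CPM in Flg knockout, against 61.0, 53.2, 59.1 and 61.3 CPM in wild type. The groups overlapped, and the interval of its log2 fold change was narrow, at -0.13 to 0.30 around 0.08 (edgeR adjusted p = 0.669). Ereg, which also binds both, was at 21.9, 38.3, 25.2 and 30.2 CPM in Flg knockout, against 25.3, 29.8, 22.8 and 26.2 CPM in wild type. Its log2 fold change was 0.15 (95% interval -0.21 to 0.50, adjusted p = 0.643), with wild type inside the range of Flg knockout.

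Areg, a growth factor of keratinocytes that immune cells also release, was at 1.53, 3.16, 3.42 and 2.62 CPM in Flg knockout, against 3.78, 3.36, 1.64 and 2.37 CPM in wild type. Epgn, the ligand found last, was at 2.0, 4.71, 2.87 and 4.97 CPM in Flg knockout, against 5.17, 5.65, 1.43 and 3.72 CPM in wild type. For both, the groups overlapped almost fully, and the data were least precise. The log2 fold change of Areg was -0.09 (95% interval -0.76 to 0.58, edgeR adjusted p = 0.90) and that of Epgn -0.16 (95% interval -1.06 to 0.75, adjusted p = 0.860). They rested on 39 to 131 reads per library for Areg and 34 to 179 for Epgn.

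Of the receptors, Egfr was at 225, 210.2, 259 and 231 CPM in Flg knockout, against 206, 177, 183 and 209 CPM in wild type. Every Flg knockout library lay above every wild-type library, by a margin of 210.2 to 209 CPM between the nearest. The log2 fold change was 0.26 ± 0.09 (SE, 95% interval 0.05 to 0.46) and did not pass (edgeR adjusted p = 0.170, 0.0758 to 0.605 over the 16 alternatives). Egfr and Egf have the longest exon lengths of the 10 genes, at 11326 and 11275 bases, and fold changes over all genes moved with length. The median log2 fold change was 0.08 in the 1199 genes tested with over 10 kb of exon and -0.12 in the 5297 genes of up to 2 kb. Areg and Epgn, at 1215 and 1807 bases, are among the latter, with log2 fold changes of -0.09 and -0.16. The part of length in the values of Egfr, Egf, Areg and Epgn was not tested.

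Erbb2, the partner receptor, was at 117, 109, 97.8 and 117 CPM in Flg knockout, against 119, 106, 126 and 109 CPM in wild type. Its log2 fold change was -0.06 (95% interval -0.25 to 0.13, edgeR adjusted p = 0.731), with the groups overlapping throughout. Erbb3 was at 195, 157, 156 and 169.8 CPM in Flg knockout, against 162, 157, 207 and 162 CPM in wild type, with a log2 fold change of -0.02 (95% interval -0.26 to 0.22, adjusted p = 0.939). Its highest library was replicate 1 in Flg knockout and replicate 3 in wild type. Melanocyte markers, whose cells also express Erbb3, had the same extremes, summing to 101 CPM in Flg knockout replicate 1 against 32.4 to 34.0 CPM in the other 3, and to 76.4 CPM in wild-type replicate 3 against 33.2 to 69.6 CPM in the others. Summed sebocyte markers had the same extremes, with Scd1 the largest part of the sum. In Flg knockout, however, Scd3, Elovl3, Awat2, Soat1 and Far2 were highest in replicate 3. Schwann cell markers were highest elsewhere, in Flg knockout replicate 3 (339 CPM) and wild-type replicate 1 (472 CPM). Of the 5 melanocyte markers 0 were called higher and 1 lower (Mlana), against 0.712% and 0.702% of all genes tested. The part of these cell types in the Erbb3 values was not tested.

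**Figure D3:**
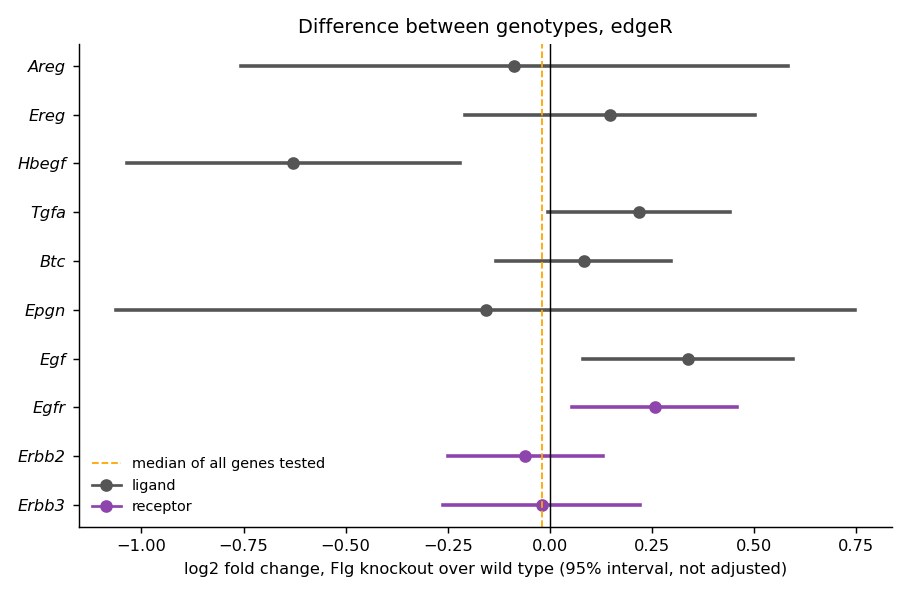
Log2 fold change of Flg knockout over wild type for each gene, with its 95% interval before adjustment, ligands in grey and receptors in purple. The dashed line is the median of all genes tested (-0.02), and only the intervals of Hbegf (below 0), Egf and Egfr (above 0) exclude 0.

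Libraries of 1 genotype differed more in Areg and Epgn than in the other members. The SD of log2 CPM within genotypes was 0.76 for Epgn and 0.52 for Areg, against 0.27 for Ereg, 0.26 for Hbegf and 0.12 to 0.17 for the other 6, with a median of 0.20 over all genes tested. Epgn spanned 3.77-fold and Areg 2.33-fold in TPM over the 8 libraries, while Erbb2 spanned 1.36-fold and Btc 1.40-fold.

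The 3 neighbours Areg, Epgn and Ereg shared their lowest libraries, which were Flg knockout replicate 1 and wild-type replicate 3. Areg deviated from the mean of its genotype by -0.72 in Flg knockout replicate 1 and by -0.67 in wild-type replicate 3 (log2 CPM). Epgn deviated by -0.75 and -1.26, and Ereg by -0.37 and -0.18, in the same 2 libraries. Btc, the fourth gene of the cluster, was lowest in Flg knockout replicate 1 and in wild-type replicate 2. Of all genes tested 13.8% had that pair of lowest libraries, so the sharing is common among genes and was seen after the values were known. Wild-type replicate 3 had the highest white adipocyte markers of its genotype, by sum and by mean log2 CPM. In Flg knockout, replicates 1 and 2 were level in the sum (7458 and 7457 CPM), and replicate 2 was higher in the mean log2 CPM (8.65 in replicate 1 and 8.69 in replicate 2). Both low libraries had the highest summed sebocyte markers of their genotype, at 9115 CPM in Flg knockout replicate 1 and 4778 CPM in wild-type replicate 3, over ranges of 5012 to 9115 CPM in Flg knockout and 2437 to 4778 CPM in wild type. Scd1 is the largest part of that sum. In Flg knockout, Scd1, Fasn and Mgst1 were highest in replicate 1, and Scd3, Elovl3, Awat2, Soat1 and Far2 in replicate 3. With the mean of the adipocyte markers as a covariate, the log2 fold changes were 0.65 for Areg (edgeR adjusted p = 0.618) and 0.96 for Epgn (0.630), still not past the test. The same covariate gave -0.26 for Erbb2 (adjusted p = 0.389), -0.30 for Erbb3 (0.391), 0.55 for Egf (0.261) and 0.26 for Ereg (0.776). That fit called 0 of all genes tested. The part of adipocytes or sebocytes in the Areg, Epgn and Ereg values was not tested.

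**Figure D4:**
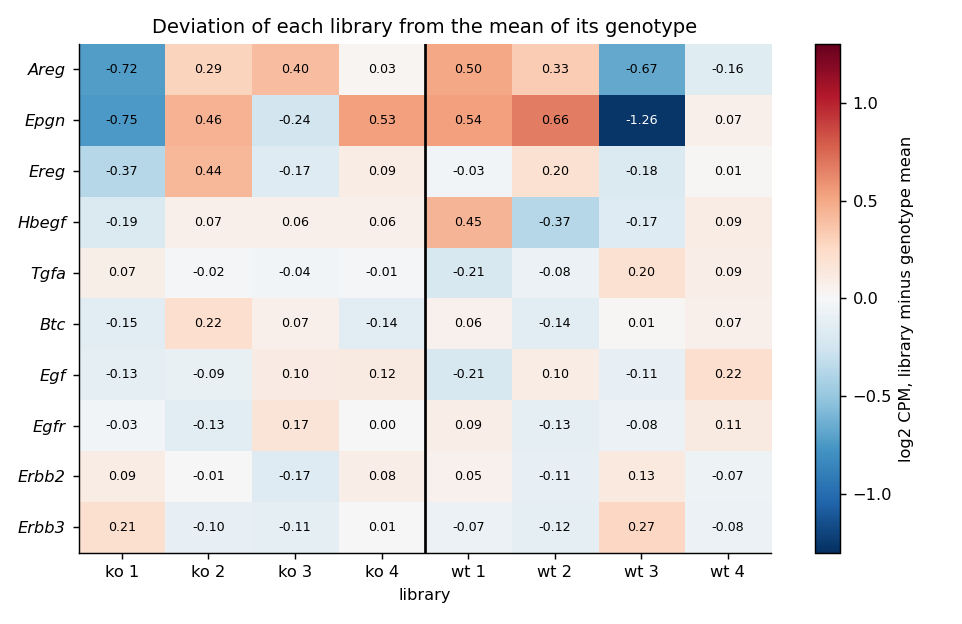
Deviation of log2 CPM from the mean of the genotype, for each gene (rows) and library (columns, Flg knockout as ko on the left and wild type as wt on the right). Areg, Epgn and Ereg are low together in ko 1 and wt 3, down to -1.26 for Epgn, while the rows of the receptors stay between -0.17 and 0.27.

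Around the ligands and receptors, 63 tested genes of the pathway in 5 lists had 3 called higher and 0 called lower in Flg knockout, which is 4.76% against 1.41% of all genes tested. At an unadjusted p under 0.05 there were 12 of 63, against 19.5% of all genes. The lists were chosen with earlier results of these data known, so these counts are a description. No overlap of CPM was seen for 6 of the 63 as higher and 2 as lower, against 5.57% and 5.95% of all genes. The 3 called genes were Timp3, Errfi1 and Stat5a.

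In the list of ligand shedding, Timp3 rose and was the 1 of 6 to pass. It encodes an inhibitor of metalloproteases that blocks ADAM17. It was at 489.9, 505, 516 and 492 CPM in Flg knockout, against 275, 268, 309.7 and 300.0 CPM in wild type, so the genotypes lay far apart. Timp3 had a log2 fold change of 0.80 ± 0.08 (SE, edgeR adjusted p = 0.00326), and it passed without any 1 of the 8 libraries. The shedding protease genes themselves had values near 0, with Adam17 at -0.04 (95% interval -0.20 to 0.13) and Adam10 at -0.05 (95% interval -0.21 to 0.10).

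Among 14 negative regulators of ERBB signalling, Errfi1 rose and was the 1 to pass, and the list median was 0.06. Its product, also known as MIG6, binds the kinase domain of EGFR and ERBB2 and is made in response to their signal. Errfi1 was at 165, 277, 394 and 278 CPM in Flg knockout, against 130.2, 86.8, 64.9 and 119.6 CPM in wild type. The groups did not overlap, and the mean was 279 ± 93.3 CPM in Flg knockout and 100.4 ± 29.98 CPM in wild type (SD, n = 4 each). The log2 fold change was 1.47 ± 0.28 (SE, edgeR adjusted p = 0.0468). Its call ended without Flg knockout replicate 2 (0.132), 3 (0.0792) or 4 (0.135) and without wild-type replicate 1 (0.0851), 2 (0.0663) or 4 (0.0922), with log2 fold changes of 1.26 to 1.66 over the libraries left out. Like Areg, Epgn and Ereg it was lowest in Flg knockout replicate 1 and wild-type replicate 3. With the adipocyte covariate its log2 fold change was 2.14 (adjusted p = 0.0973), in a fit that called 0 of all genes tested. Spry4, a feedback inhibitor of the RAS and ERK pathway named after its values were seen, was at 7.55, 11.5, 9.62 and 11.6 CPM in Flg knockout, against 6.53, 5.69, 6.32 and 6.77 CPM in wild type. It had a log2 fold change of 0.66 ± 0.15 and an edgeR adjusted p of 0.0592.

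**Figure D5:**
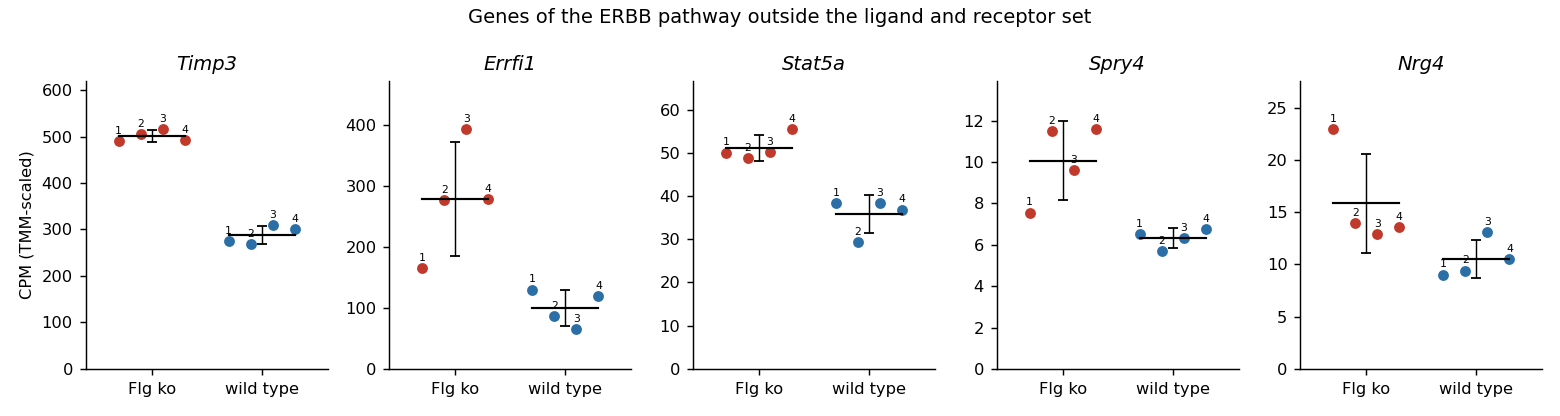
CPM of 5 pathway genes in Flg knockout (left) and wild type (right) of each panel, by library, with mean and SD. Timp3, Errfi1 and Stat5a passed the edgeR test as higher in Flg knockout, and Spry4 (adjusted p = 0.0592) and Nrg4 (0.146) did not.

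Of 25 adaptors and kinases after the receptor, Stat5a rose and was the 1 to pass, with a list median of -0.02. Stat5a encodes a transcription factor that ERBB receptors and cytokine receptors activate. It was at 50.0, 48.8, 50.1 and 55.5 CPM in Flg knockout, against 38.5, 29.3, 38.4 and 36.8 CPM in wild type, with no overlap and a log2 fold change of 0.52 ± 0.10 (SE, edgeR adjusted p = 0.0416). Its call ended without Flg knockout replicate 1 (0.0911), 2 (0.118), 3 (0.0792) or 4 (0.142) and without wild-type replicate 1 (0.074) or 4 (0.0881). With the adipocyte covariate it was 0.37 (adjusted p = 0.385), in a fit that called 0 of all genes tested. The part of adipocytes in the Stat5a values was not tested. Pik3r1 of the same list, named after its values were seen, lay nearer the threshold than Spry4. Its log2 fold change was 0.50 ± 0.11 (SE, edgeR adjusted p = 0.0562), higher in Flg knockout with no overlap.

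Genes that respond to ERK signalling gave 0 of 14 with edgeR, 3 of them at an unadjusted p under 0.05, and a list median of 0.06. Ier3, an early response gene, had a log2 fold change of -0.57 ± 0.15 (adjusted p = 0.0927), with 17.7, 16.3, 20.6 and 17.0 CPM in Flg knockout against 25.5, 35.6, 21.6 and 23.4 CPM in wild type, and no overlap. Dusp4, a phosphatase that switches ERK off, stood at 0.79 ± 0.32 (adjusted p = 0.216). Fos and Egr1, the classical early targets, stood at -0.29 (95% interval -1.48 to 0.89) and 0.06 (95% interval -0.52 to 0.63), named after their values were seen.

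Erbb4 and the neuregulins gave 0 of 4 tested with edgeR, 1 of them at an unadjusted p under 0.05, and Nrg3 was too low to be tested. Erbb4, the receptor shared by several of the ligands above, was at 0.256 ± 0.0376 TPM in Flg knockout and 0.304 ± 0.052 TPM in wild type, below every member of the ligand and receptor set. Its log2 fold change was -0.28 ± 0.22 (edgeR adjusted p = 0.505). Nrg4, a ligand of ERBB4 that fat tissue secretes, was at 22.9, 13.9, 12.9 and 13.5 CPM in Flg knockout, against 9.01, 9.41, 13.1 and 10.5 CPM in wild type. Its log2 fold change was 0.60 ± 0.20 (adjusted p = 0.146). Wild-type replicate 3, the wild-type library with the most adipocyte marker transcripts, overlapped the Flg knockout libraries. Flg knockout replicates 1 and 2 differed in Nrg4 but were near each other in mean log2 CPM of adipocyte markers (8.65 and 8.69). The part of adipocytes in the Nrg4 values was not tested.

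Hbegf was the member with the smallest p, and Mvb12a, Rusc1, Gpr137, Gnl1 and Pdgfb were the 5 genes most alike to it in pattern, with Pearson's r of 0.99, 0.98, 0.98, 0.98 and 0.97 of log2 CPM over the 8 libraries. Their log2 fold changes were -0.28, -0.51, -0.30, -0.17 and -0.33, and none passed the edgeR test (adjusted p from 0.0825 to 0.275). Of 19098 genes compared, 273 had an r over 0.9 with Hbegf. The 8 libraries share their genotypes, and these values describe these libraries only.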

How the data were processed

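Whole back skin RNA of 4 Flg knockout and 4 wild-type samples was sequenced on an Illumina NextSeq, per the series' design text. The design text names a SMART library protocol and the sample labels an Ultra II Directional kit, and this conflict could not be settled. The authors deposited raw counts per gene, whole numbers without normalization, made with GSNAP (mm10) and featureCounts 1.6.2, per the submitters' processing notes. For strand setting and multi-mapped reads: not given in the sources used here. Exon length, the other deposited value used, is in bases, per the file headers. Of 49763 rows, 92 were spike-ins with at most 1 read and were left out. A GENCODE M21 symbol was found for 49326 of 49671 genes.

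From these counts, edgeR 4.0.16 (R 4.3.3) was fitted to the 8 libraries with a genotype term alone, after filterByExpr (19099 genes kept) and TMM scaling, with the robust quasi-likelihood test and Benjamini-Hochberg adjustment over all genes. The common coefficient of variation was 15.9%. SE came from the F statistic, and intervals are 95% and not adjusted for the number of genes. Log2 CPM used a prior count of 2, and TPM used the deposited exon lengths. Alternatives used DESeq2 1.42.0, limma 3.58.1 voom, other scalings, filters and covariates, and each library left out. The fit was tested on simulated data. Replicates were numbered in sample order, so a number pairs nothing.

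The members and gene lists were chosen with earlier results of these data known. All members were named. In other pathway lists the called genes were named, or else the 2 with the smallest p, and the 5 genes most correlated with the member of smallest p. Other genes (Adam17, Adam10, Spry4, Pik3r1, Fos, Egr1, Krt5, Mlana, Car3, Cd2, Mrc1, and the sebocyte and hair follicle markers) were named after their values were seen. Alternatives for the called pathway genes, and the split by exon length, were added after seeing the data. Protein sequences were not used here.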

Additional observations from a re-analysis of the deposited data

Results flagged for a closer look

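In 14 genes and both genotypes, 28 sets of 4 libraries were examined for a single library far from the other 3, and 2 were found, where chance gives about 1 in 20. Hbegf was at 3.66 CPM in Flg knockout replicate 1, while the other 3 Flg knockout libraries lay close together at 4.37 to 4.39 CPM. Erbb3 was at 207 CPM in wild-type replicate 3, while the other 3 wild-type libraries lay at 157 to 162 CPM.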

How the results depend on the processing

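No paired analysis was possible because the labels carry no replicate numbers. Over 16 alternatives, 0 of the 10 ligand and receptor genes were called, except with DESeq2 and limma voom, which called 1, Hbegf as lower (1 lower). Hbegf, Tgfa, Btc, Egf and Egfr kept their direction under all 16. The other 5, none past the test, gave 14 sign changes among them, over 16 alternatives each. With limma voom Erbb3 was 0.0013. With the adipocyte covariate Areg was 0.65 and Epgn 0.96. Tgfa, at 0.06, Btc, at 0.05, Ereg, at 0.26, Erbb2, at -0.26, Erbb3, at -0.30, and Egf, at 0.55, moved by over 1.5 times there without a change of sign. With the basal keratinocyte covariate Erbb2 was 0.0894 and Erbb3 0.10. With 1 library left out, Areg was between -0.26 and 0.12, Epgn between -0.43 and 0.0595, Ereg between -0.014 and 0.26, and Erbb3 between -0.0939 and 0.0876. Over all genes, 270 calls (136 higher, 134 lower) became 1177 (591 and 586) with DESeq2, 2535 (1174 and 1361) with limma voom, 502 (234 and 268) with no filter, 27 (20 and 7) with the basal keratinocyte covariate and 0 (0 and 0) with the adipocyte covariate. With each library left out they were between 11 and 1325 (9 to 679 higher, 2 to 646 lower), lowest without Flg knockout replicate 2 and highest without wild-type replicate 3. Flg, at -1.31 with the adipocyte covariate, did not pass there (adjusted p = 0.0783). The cause was not tested. Errfi1 did not pass with no filter (adjusted p = 0.137) or with the basal keratinocyte covariate (1.15, 0.263). Timp3 passed all but the adipocyte covariate (0.72, 0.0834). Stat5a did not pass with either covariate (basal keratinocyte 0.63, 0.152). For Areg and Epgn, at 34 to 179 reads per library, depth and spread between libraries limit what could be seen.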
